A study of Mus musculus with 4 samples.

Results

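Cyp2b9, Cyp2b10, Cyp2b13, Cyp3a11, Cyp3a13, Cyp3a16, Cyp3a41a and Cyp3a44 encode drug-metabolising cytochrome P450 enzymes of mouse liver. They were followed in livers of vitamin C-treated and untreated mice with a mutant Wrn protein. The 8 genes were taken as all non-control probes whose RefSeq accession maps to these symbols, which gave 11 probes of 41174 on the array. Each was printed as 1 spot, and all 11 were well above background in both dyes on 4 of 4 arrays, with 0 saturated spots. The genes were chosen with their ratios on these arrays already known, so those ratios are given as a description and support no test.

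The treated livers came from male C57Bl/6 Wrn mutant mice that drank water with 0.4% vitamin C since weaning. The untreated livers came from male C57Bl/6 Wrn mutant mice given no vitamin C, and both groups were 3 months old and lived on a reversed light cycle. Wild-type livers were not analysed here, and the Wrn mutation is shared by both groups. Each of 4 two-colour arrays carried RNA from 1 treated liver (Cy3) and 1 untreated liver (Cy5), so n = 4 livers per group. The measurement is a log2 ratio of vitamin C over untreated after background correction and loess normalization within the array, where 1 unit is a doubling.

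Members of the Cyp2b and Cyp3a subfamilies sit in the endoplasmic reticulum, take electrons from the reductase encoded by Por, and oxidise drugs, steroids and bile acids around a heme group. In mouse liver their transcription is raised by the nuclear receptors CAR (Nr1i3), for which Cyp2b10 is the usual reporter gene, and PXR (Nr1i2), for which Cyp3a11 is the usual one. Both receptors bind DNA as partners of RXR at pairs of half-sites close to AGGTCA. Cyp2b9, Cyp2b13, Cyp3a16, Cyp3a41a and Cyp3a44 are also known in mice as genes with more expression in adult female than in adult male liver, a difference set by the pattern of growth hormone release.

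For the treated RNA in Cy3, the median spot of an array had 379.5 to 530 intensity units, where negative controls had 62 to 67. For the untreated RNA in Cy5, it had 813 to 962, where negative controls had 66 to 80. The technical error of a single spot, taken from 245 probes printed repeatedly, was 0.073 to 0.082 log2 units (SD within an array). The dyes ran the same way on all arrays, with 0 swapped, so a dye effect of a probe and an effect of the treatment cannot be told apart. Directions rest on the dye labels; if the dyes were reversed, every sign below would turn. Across all genes the ratios of replicate 2 correlated with those of replicates 1, 3 and 4 at r = 0.020, -0.15 and -0.18, whereas those 3 correlated with each other at 0.60 to 0.78 (across genes, which are not independent replicates). Where leaving out 1 array moved a member's mean by over 1.5 times, the value without it is given.

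The Cyp2b genes are described first. RefSeq places Cyp2b10, Cyp2b13 and Cyp2b9 next to each other on mouse chromosome 7. The stretch of their promoters from 250 to 111 bases before the transcription start is printed because all 5 Cyp2b probes had their highest ratio on the same array, replicate 3. Capitals mark a match to AGGTCA on either strand, the half-site of CAR, PXR and related receptors, and the windows are from RefSeq, build GRCm38.p6, all on the plus strand.
Cyp2b9, chr7:26173159-26173298: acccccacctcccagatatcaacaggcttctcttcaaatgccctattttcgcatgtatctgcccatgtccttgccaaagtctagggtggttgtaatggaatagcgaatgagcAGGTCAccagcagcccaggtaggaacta
Cyp2b13, chr7:26061245-26061384: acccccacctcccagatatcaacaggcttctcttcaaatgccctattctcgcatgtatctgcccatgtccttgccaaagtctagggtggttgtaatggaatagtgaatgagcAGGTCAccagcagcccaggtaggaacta
Cyp2b10, chr7:25897408-25897547: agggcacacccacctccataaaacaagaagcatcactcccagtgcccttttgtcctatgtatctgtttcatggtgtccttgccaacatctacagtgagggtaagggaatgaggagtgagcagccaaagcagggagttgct

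Over the 250 bases before the start, Cyp2b9 and Cyp2b13 had 248 identical bases (99.2%) and differed by T48C and C104T, written as Cyp2b9 base, position counted from 1 at the far end of the window, and Cyp2b13 base. Cyp2b10 was identical to either in 182 of 260 aligned columns (70%). The AGGTCA match of Cyp2b9 and Cyp2b13 lay 138 to 133 bases before the start, and the Cyp2b10 window held 0 matches to AGGTCA, to the related half-site AGTTCA or to TATAAA. A match is a description of letters and no evidence of binding, and the distal CAR-responsive enhancer described for Cyp2b10 lies outside this window.

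Cyp2b9 had the highest mean ratio of the 8 genes, although Cyp3a16 and Cyp3a41a were higher on replicate 2. With probe A_51_P467076 its log2 ratios were 1.58, 0.49, 3.34 and 0.97 on replicates 1 to 4, a mean of 1.59 ± 1.25 (SD, n = 4) and a fold of 3.02. The ratio was above 0 on all 4 arrays, but its size ran from a fold of 1.40 on replicate 2 to 10.1 on replicate 3. In single livers the normalised log2 intensity was 11.87, 11.02, 13.38 and 10.13 in treated livers, against 10.29, 10.53, 10.04 and 9.15 in untreated livers. The treated liver of replicate 3 stood highest, the untreated liver of replicate 4 lowest, and the groups overlapped because the treated liver of replicate 4 lay below 2 untreated ones. Treated livers spanned 3.25 log2 units and untreated livers 1.38. Without replicate 3 the mean was 1.01, and without replicate 2 it was 1.96.

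Cyp2b10, the gene most used as a readout of CAR, had log2 ratios of 0.62, 0.21, 1.20 and 0.37 on probe A_52_P472486. The mean was 0.60 ± 0.44 (SD, n = 4), a fold of 1.52. Its normalised log2 intensity was 8.75, 8.62, 9.18 and 8.12 in treated livers, against 8.13, 8.40, 7.98 and 7.75 in untreated livers. As for Cyp2b9, replicate 3 held the highest treated liver, and the treated liver of replicate 4 fell within the untreated range. The mean was 0.40 without replicate 3 and 0.73 without replicate 2.

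Cyp2b13 was measured by a pair of probes that disagreed. Probe A_51_P492339 had log2 ratios of 1.19, 0.36, 2.42 and 0.57, a mean of 1.13 ± 0.93 (SD, n = 4). Its normalised log2 intensity was 10.49, 9.76, 11.50 and 9.21 in treated livers, against 9.29, 9.40, 9.09 and 8.64 in untreated livers. The other, somewhat brighter probe, A_52_P289091, had 0.0047, -0.012, 0.36 and -0.11, a mean of 0.061 ± 0.20. Because the brighter probe stands for a gene in the test across all genes, the value entered for Cyp2b13 there is the near-zero one, and it was -0.038 without replicate 3 and 0.12 without replicate 4. The first probe had a mean of 0.71 without replicate 3.

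The second probe of Cyp2b9, the dimmer A_52_P256914, also had lower ratios than the first. They were 0.43, -0.032, 0.77 and 0.049 on replicates 1 to 4, a mean of 0.30 ± 0.37 (SD, n = 4). Replicate 3 was again the highest array and replicate 2 the lowest, and the mean was 0.15 without replicate 3. Probe sequences were not used here, so which transcripts of this closely related family each probe binds is unknown, and a single gene's value is uncertain.

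The 3 probes with the larger ratios, A_51_P467076 of Cyp2b9, A_51_P492339 of Cyp2b13 and A_52_P472486 of Cyp2b10, ranked the arrays in 1 order, with replicate 3 highest, then replicates 1, 4 and 2. On replicate 3 they spanned 1.20 to 3.34, and on replicate 2 they spanned 0.21 to 0.49. All 3 were above 0 on 4 of 4 arrays. With Agilent's processed signals and no further loess their means were 1.57, 1.34 and 0.71. The order was not kept there for Cyp2b10, which had 0.45, 0.22, 1.52 and 0.65 on replicates 1 to 4. Replicate 4 thus ranked above replicate 1 for that gene. In the main processing the brighter Cyp2b13 probe, not among these 3, was lowest on replicate 4.

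**Figure D1:**
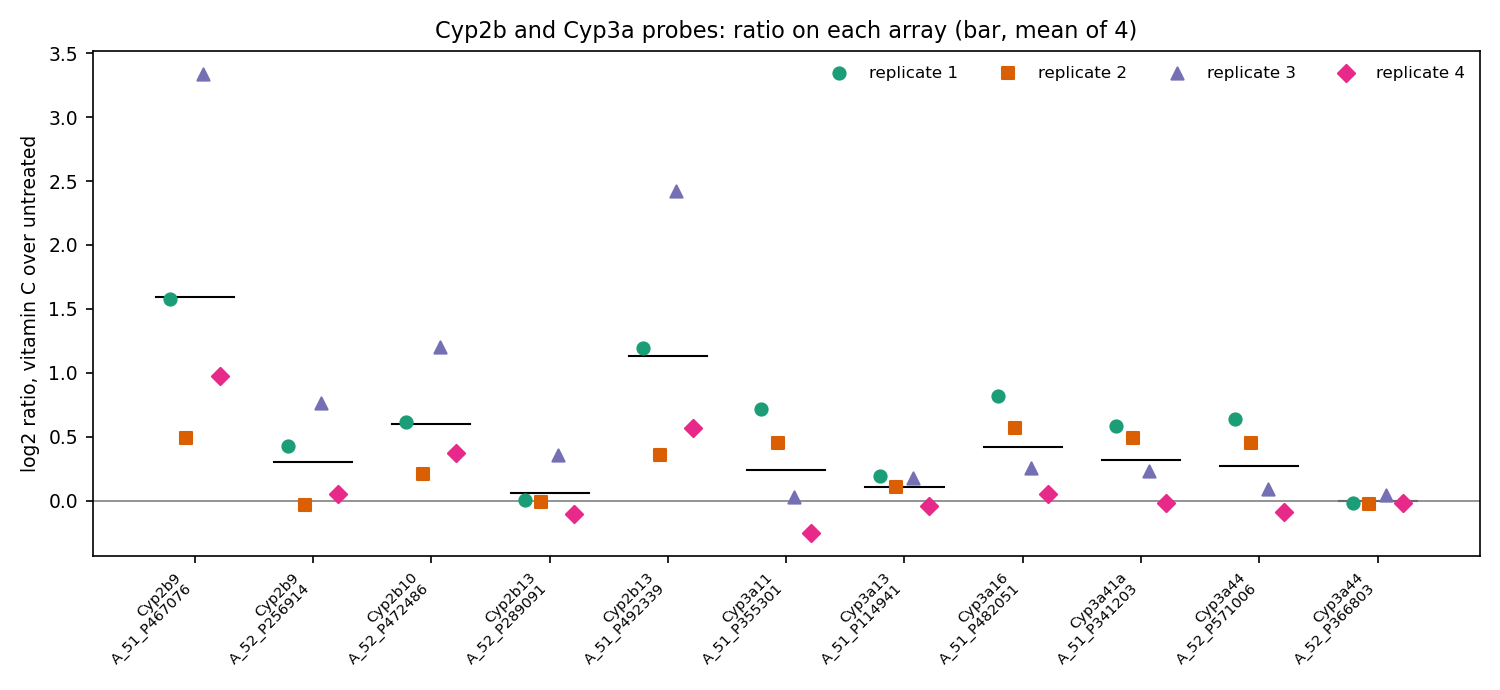
Log2 ratio of vitamin C over untreated for each of the 11 probes (horizontal axis, gene and probe) on each of 4 arrays (symbols), with the mean as a bar. The 5 probes of Cyp2b9, Cyp2b10 and Cyp2b13 are highest on replicate 3, up to 3.34, while the probes of Cyp3a11, Cyp3a16 and Cyp3a41a and the brighter one of Cyp3a44 are highest on replicate 1, at 0.58 to 0.82.

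Among the Cyp3a genes, Cyp3a41a, Cyp3a44 and Cyp3a11 are neighbours on chromosome 5 in RefSeq. Cyp3a16 lies in the same cluster beyond Cyp3a41b, a copy of Cyp3a41a that no probe with a settled symbol represented, and Cyp3a13 lies elsewhere on that chromosome. The promoter stretches from 250 to 111 bases before the start are shown for the 4 clustered genes because their ratios were nearly alike. Capitals mark AGGTCA and AGTTCA (printed as TGAACT where it is on the other strand), and the TATA-type motif TATAAA; all windows are from RefSeq, build GRCm38.p6, minus strand.
Cyp3a11, chr5:145879965-145880104: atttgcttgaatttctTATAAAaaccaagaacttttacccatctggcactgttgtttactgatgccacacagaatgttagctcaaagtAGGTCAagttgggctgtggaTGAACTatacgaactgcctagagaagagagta
Cyp3a16, chr5:145469834-145469973: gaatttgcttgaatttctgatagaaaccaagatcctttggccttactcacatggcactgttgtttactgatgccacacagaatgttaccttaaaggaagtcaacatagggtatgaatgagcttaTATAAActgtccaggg
Cyp3a41a, chr5:145720247-145720386: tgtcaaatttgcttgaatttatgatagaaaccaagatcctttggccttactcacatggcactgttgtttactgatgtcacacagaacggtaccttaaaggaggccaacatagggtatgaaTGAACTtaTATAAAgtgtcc
Cyp3a44, chr5:145805985-145806124: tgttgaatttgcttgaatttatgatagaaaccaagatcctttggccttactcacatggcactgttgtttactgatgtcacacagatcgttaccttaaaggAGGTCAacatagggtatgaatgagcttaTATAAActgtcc

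Over 250 bases Cyp3a41a and Cyp3a44 were 94.4% identical, Cyp3a16 was 90.9% identical to Cyp3a41a and 92.9% to Cyp3a44, and Cyp3a11 was 71.7% to 76.2% identical to these 3. Cyp3a13 shared 51.1% to 53.9% with the other Cyp3a windows. AGGTCA was found on either strand in 4 of the 8 members' windows, where 14% of 32851 promoter windows of the same length held it. AGTTCA was found in 2 of 8, against 11.8% of all windows, and TATAAA in 4 of 8, against 12.4%. Several members' windows are near copies of each other, such as those of Cyp2b9 and Cyp2b13, so they are not independent. Nothing is read from these counts. None of the matches of these motifs overlapped another.

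Cyp3a11, the main inducible Cyp3a enzyme of mouse liver, had log2 ratios of 0.71, 0.45, 0.028 and -0.25 on replicates 1 to 4. The mean was 0.24 ± 0.43 (SD, n = 4), smaller than its spread. Its normalised log2 intensity was 17.01, 16.71, 16.53 and 16.42 in treated livers, against 16.30, 16.26, 16.50 and 16.67 in untreated livers. The treated livers of replicates 1 and 2 lay above all 4 untreated livers, and the treated liver of replicate 4 lay below 2 of them. The mean was 0.076 without replicate 1 and 0.40 without replicate 4.

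Cyp3a16 is known for expression in fetal and female mouse liver. Its log2 ratios were 0.82, 0.56, 0.26 and 0.048, a mean of 0.42 ± 0.34 (SD, n = 4) and a fold of 1.34. Normalised log2 intensity was 16.17, 15.95, 15.86 and 15.69 in treated livers, against 15.36, 15.38, 15.61 and 15.64 in untreated livers. The groups did not overlap, by the narrow gap between replicate 4's 2 livers. Over all genes the lowest treated liver lay above the highest untreated one for 4.51% of 31077 genes, and the reverse held for 2.55% of them and for 0 of the 8 members. The mean of Cyp3a16 was 0.29 without replicate 1 and 0.55 without replicate 4.

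Cyp3a41a, a steroid hydroxylase gene of female liver, had log2 ratios of 0.58, 0.49, 0.23 and -0.022, a mean of 0.32 ± 0.27 (SD, n = 4). Normalised log2 intensity was 17.76, 17.69, 17.62 and 17.46 in treated livers, against 17.17, 17.20, 17.39 and 17.48 in untreated livers. Replicates 1, 2 and 3 had their treated livers above all untreated ones, and replicate 4 had its treated liver just below its untreated liver. The mean was 0.23 without replicate 1.

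Cyp3a44, a further female-biased member, had log2 ratios of 0.64, 0.45, 0.092 and -0.091 on its brighter probe A_52_P571006, a mean of 0.27 ± 0.33 (SD, n = 4). Normalised log2 intensity was 16.71, 16.48, 16.43 and 16.36 in treated livers, against 16.07, 16.03, 16.34 and 16.45 in untreated livers. The groups overlapped because the untreated liver of replicate 4 lay above the treated livers of replicates 3 and 4. The mean was 0.15 without replicate 1 and 0.39 without replicate 4. Its second probe, A_52_P366803, was dim, with a mean log2 intensity of 6.89 after an offset of 50 intensity units had been added. The ratios of that probe were -0.020, -0.028, 0.044 and -0.020, a mean of -0.0059 ± 0.033. That mean was -0.022 without replicate 3, and -0.0012, 0.0013 and -0.0013 without replicates 1, 2 and 4.

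The probes for Cyp3a11, Cyp3a16 and Cyp3a41a and the brighter probe for Cyp3a44 ranked the arrays alike, with replicate 1 highest, then 2, 3 and 4. Their ratios on an array lay within 0.58 to 0.82, 0.45 to 0.56, 0.028 to 0.26 and -0.25 to 0.048 on replicates 1 to 4. The root mean square distance between the 4 ratios of Cyp3a41a and Cyp3a44 was 0.085, and that between Cyp3a11 and Cyp3a44 was 0.093. Such a distance holds the error of both probes, so the technical SD of a single spot is not its direct yardstick. Whether these probes separate the closely related family members was not tested, and how much of the Cyp3a16, Cyp3a41a and Cyp3a44 signals comes from other members was not tested. This order of arrays was not that of the Cyp2b genes, which were highest on replicate 3.

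Cyp3a13, which is expressed in intestine as well as liver, had small ratios of 0.19, 0.11, 0.18 and -0.047, a mean of 0.11 ± 0.11 (SD, n = 4). Normalised log2 intensity was 14.59, 14.67, 14.65 and 14.64 in treated livers, against 14.40, 14.56, 14.48 and 14.69 in untreated livers. Treated livers differed among themselves by 0.079 log2 units, the least of the 11 probes, and the groups overlapped because the untreated liver of replicate 4 was the highest of all 8.

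**Figure D2:**
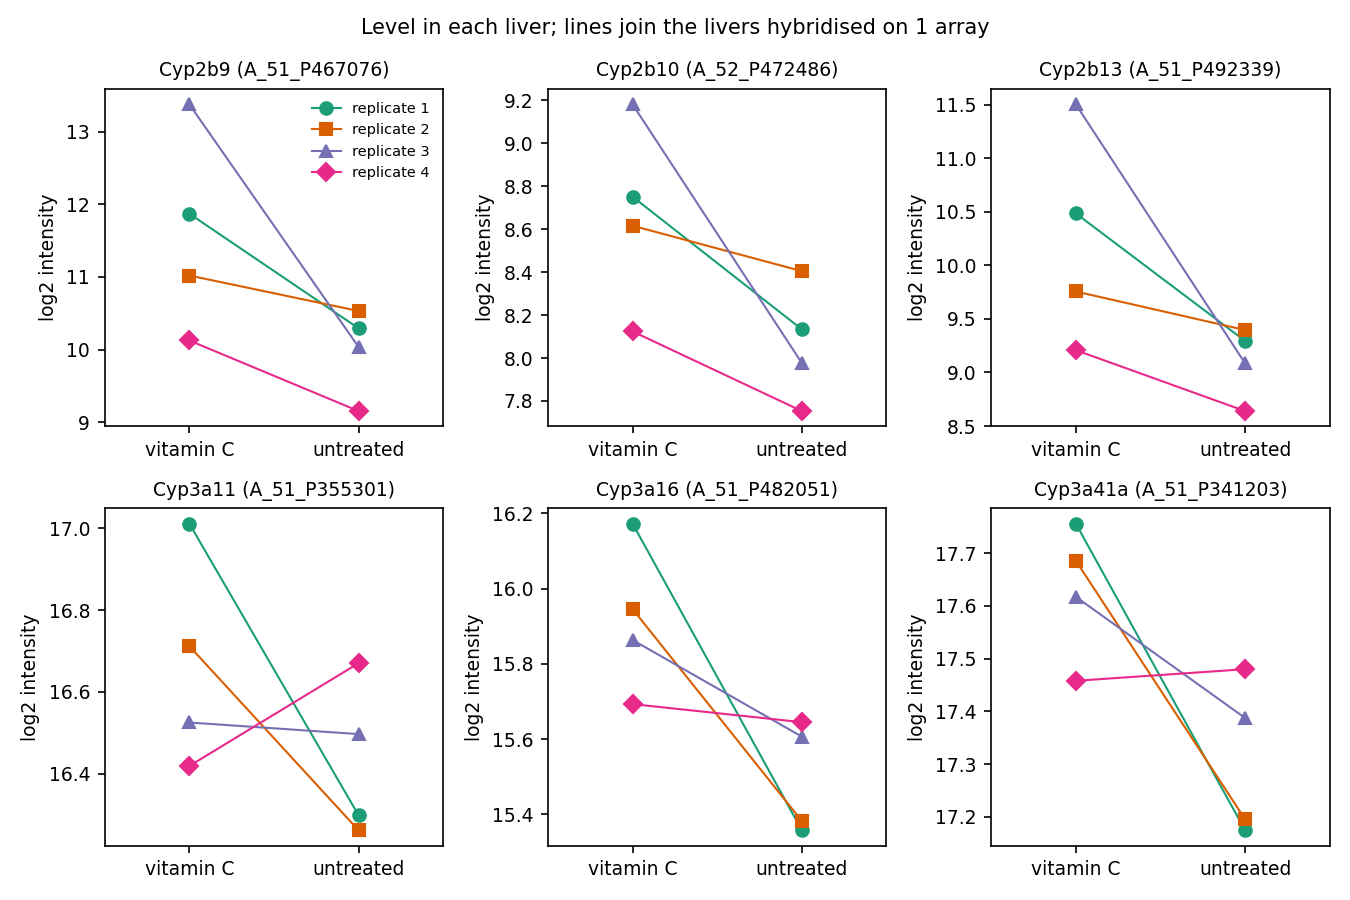
Normalised log2 intensity (vertical axes, which differ in range and do not start at 0) in treated and untreated livers for 6 probes, with lines joining the 2 livers of an array. For Cyp2b9 the treated liver of replicate 3 stands apart at 13.38, and for Cyp3a11 the lines cross, with replicate 4 higher in the untreated liver (16.67) than in the treated one (16.42).

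Of the 8 genes, 8 had a mean above 0, as did 14313 of all 31077 genes tested. The 8 had a median of 0.30, whereas the median of all genes tested was -0.015. Array medians of the 8 were 0.63, 0.45, 0.24 and -0.034 on replicates 1 to 4. Cyp2b9, Cyp2b10 and Cyp3a16 were above 0 on all 4 arrays, as were 14.8% of all genes. Only 3 of 31077 genes (0.00965%), Cyp2b9 among them, had a mean at or above that of Cyp2b9, and 30 (0.0965%) had an SD as large. These shares hold for the brighter Cyp2b9 probe. Its dimmer probe had a mean of 0.30, and the average of its probes was 0.95. Because the members were chosen with these ratios known, nothing is read from the shares. The members' median was 0.055 to 0.46 in 14 other ways of processing or leaving out an array; it was lowest without loess, where Cyp3a11 had a mean of 0.011, Cyp3a41a 0.053, Cyp3a44 0.057, Cyp2b13 -0.062 and Cyp3a13 -0.034, while Cyp2b9 kept 1.45, Cyp2b10 0.64 and Cyp3a16 0.23.

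In limma's test across all genes with Benjamini-Hochberg adjustment, 0 of the 8 genes passed an adjusted p of 0.05, as did 0% of all 31077 genes. The members' adjusted p-values in that fit were 0.144 to 0.649. At an unadjusted p under 0.05, 8609 genes (27.7%) passed, 3464 of them higher (11.1%), and 4 of the 8 members were among the higher ones. Because the members were picked with this contrast known, nothing is read from that count. Without replicate 2, 8754 of 31077 genes (28.2%) passed after adjustment, and 2 of the 8 members, Cyp2b9 and Cyp2b10, were among them. Without loess 9638 genes (31%) passed, with the same 2 members. Nothing is read from these counts either, and in neither case did the members pass more often than all genes did.

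The receptors and their regulators were examined next. PXR's gene Nr1i2 had log2 ratios of 0.38, 0.23, 0.76 and 0.64, a mean of 0.50 ± 0.24 (SD, n = 4; adjusted p = 0.144, limma, not passed). Its normalised log2 intensity was 12.19, 12.13, 12.60 and 12.50 in treated livers, against 11.81, 11.90, 11.84 and 11.86 in untreated livers, with no overlap. CAR's gene Nr1i3 had 0.45, 0.14, 0.47 and -0.33, a mean of 0.18 ± 0.37, and Rxra, their shared partner, had -0.018 ± 0.12 on its brighter probe and 0.12 ± 0.026 on a dimmer one. The chaperone gene Hsp90aa1, whose product keeps CAR in the cytoplasm, had -0.45 ± 0.30, below 0 on all 4 arrays, and Prmt1, an arginine methyltransferase gene that acts as a PXR coregulator, had -0.15 ± 0.023. Neither passed (adjusted p = 0.144 and 0.145, limma). Of 22 receptor and regulator genes, 0 passed, 2 were higher and 2 lower at an unadjusted p under 0.05, and the list median was 0.00064. That median was below 0 in 8 of 14 alternatives.

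Genes that supply the P450 enzymes with electrons and heme had a list median of 0.15 over 14 measured genes. Of these, 10 had means above 0, as did 14313 of all 31077 genes. Without loess the list median was -0.014. Por, the reductase gene, had 0.036, -0.62, 0.63 and 0.46, a mean of 0.13 ± 0.56 (SD, n = 4). Alas1, the gene of the first and rate-limiting step of heme synthesis and itself a target of CAR and PXR in mice, had -0.87, -0.65, -0.84 and 0.39, a mean of -0.49 ± 0.60. Its treated livers of replicates 1, 2 and 3 were lower than the untreated livers on the same arrays, and replicate 4 had the opposite sign. Fech, the gene of the last step of heme synthesis, was above 0 on all 4 arrays (0.25 ± 0.15), although a second Fech probe had 0.025, and Pgrmc1, a heme-binding partner of P450 enzymes, was below 0 on all 4 (-0.46 ± 0.15). None passed (smallest adjusted p = 0.144, limma); at an unadjusted p under 0.05, 4 were higher and 1 lower.

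Other known targets of CAR and PXR had no common direction. Among 16 further phase I genes the median was -0.043, with 0 higher and 2 lower at an unadjusted p under 0.05: Akr1b7 (-0.36 ± 0.15) and the retinal dehydrogenase gene Aldh1a1 (-0.48 ± 0.33), both below 0 on all 4 arrays. The 20 conjugation and transport genes had a median of 0.041, with 2 higher and 2 lower. There the glutathione transferase gene Gsta2 had 0.97, 0.087, 1.04 and 1.64, a mean of 0.93 ± 0.64, and the bile canalicular export pump gene Abcc2 had -0.33 ± 0.10 and the estrogen sulfotransferase gene Sult1e1 -0.22 ± 0.072. Among 14 genes of metabolism and growth control the median was 0.091, with 2 higher and 1 lower; Gadd45a, a stress-response gene, had 0.55 ± 0.46, above 0 on all 4 arrays. Over these 3 lists 0 genes passed (smallest adjusted p = 0.144, limma). These medians changed sign in 1 or 2 of 14 alternatives each. Cyp1a2, a member of the phase I list and also a target of the aryl hydrocarbon receptor, had -0.10, 0.14, -0.60 and -0.70, a mean of -0.32 ± 0.40.

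The remaining measured genes of the same subfamilies were Cyp3a25, Cyp2b19 and Cyp2b23. Cyp3a25, the next gene to Cyp3a11, had 0.16, 0.052, 0.19 and 0.31, a mean of 0.18 ± 0.11 (SD, n = 4), and 0.20 ± 0.15 on a second probe. Cyp2b19, described in mice as a skin enzyme, had a mean of -0.32 ± 0.26, and Cyp2b23 had -0.10 ± 0.23. The Cyp2b19 probe had a mean log2 intensity of 12.34, above the 10.80 of the brighter Cyp2b9 probe. Which transcripts that Cyp2b19 probe binds in liver was not tested. None of the 3 passed (adjusted p of 0.148 to 0.494, limma).

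Since 5 of the 8 members are female-biased genes, other sex-biased liver genes were set beside them. The 18 measured female-biased genes outside the family had a median of -0.067, with array medians of -0.049, -0.22, -0.037 and 0.048, and 0.00040 without replicate 2. Of these 18, 8 had means above 0 and 10 below, and at an unadjusted p under 0.05, 2 were higher and 4 lower. In this list Sult1e1, A1bg (-0.20 ± 0.083) and Hao2 (-0.16 ± 0.15) were below 0 on all 4 arrays, as were 16.1% of all genes. The list's highest mean was that of Cyp4a14, a fatty acid hydroxylase gene named here after its values had been seen, with 3.49, -1.57, 3.92 and 1.43; like 4 of the 5 Cyp2b probes it was highest on replicate 3 and lowest on replicate 2. The 25 male-biased genes had a median of -0.34 and array medians of -0.45, 0.14, -0.90 and -0.50. Of these 25, 24 had means below 0, as did 16764 of all 31077 genes. At an unadjusted p under 0.05, 11 were lower and 0 higher, where 16.6% of all genes were lower. Mup4, which encodes a urinary protein of males and shares sequence with its family, had -1.14 ± 0.78, Susd4 -0.71 ± 0.46, and the growth hormone receptor gene Ghr -0.25 ± 0.081, with -0.016 and 0.071 on its other probes. The list median was -0.52 without replicate 2 and -0.55 without loess. Replicate 3, where the 5 Cyp2b probes were highest, had the lowest array median of the male-biased list, and replicate 2, where 4 of those 5 were lowest, had the highest. Whether these orders are linked was not tested, and replicate 2 departed from the other arrays across all genes too.

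P450 genes under other receptors had a median of -0.11 over 19 genes, with 1 higher and 6 lower at an unadjusted p under 0.05 and 0 passed. Leaving out replicate 1 put that median at -0.20, and leaving out replicate 2 at -0.24. Cyp2e1, the ethanol-oxidising enzyme of pericentral hepatocytes, had 0.47, -0.29, 0.0079 and -0.90, a mean of -0.18 ± 0.57 (SD, n = 4). Cyp2d26 (-0.43 ± 0.18), the sterol demethylase gene Cyp51 (-0.30 ± 0.10) and the periportal enzyme gene Cyp2f2 (-0.57 ± 0.32) were below 0 on all 4 arrays, although the other Cyp51 probes had 0.026 and -0.18.

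**Figure D3:**
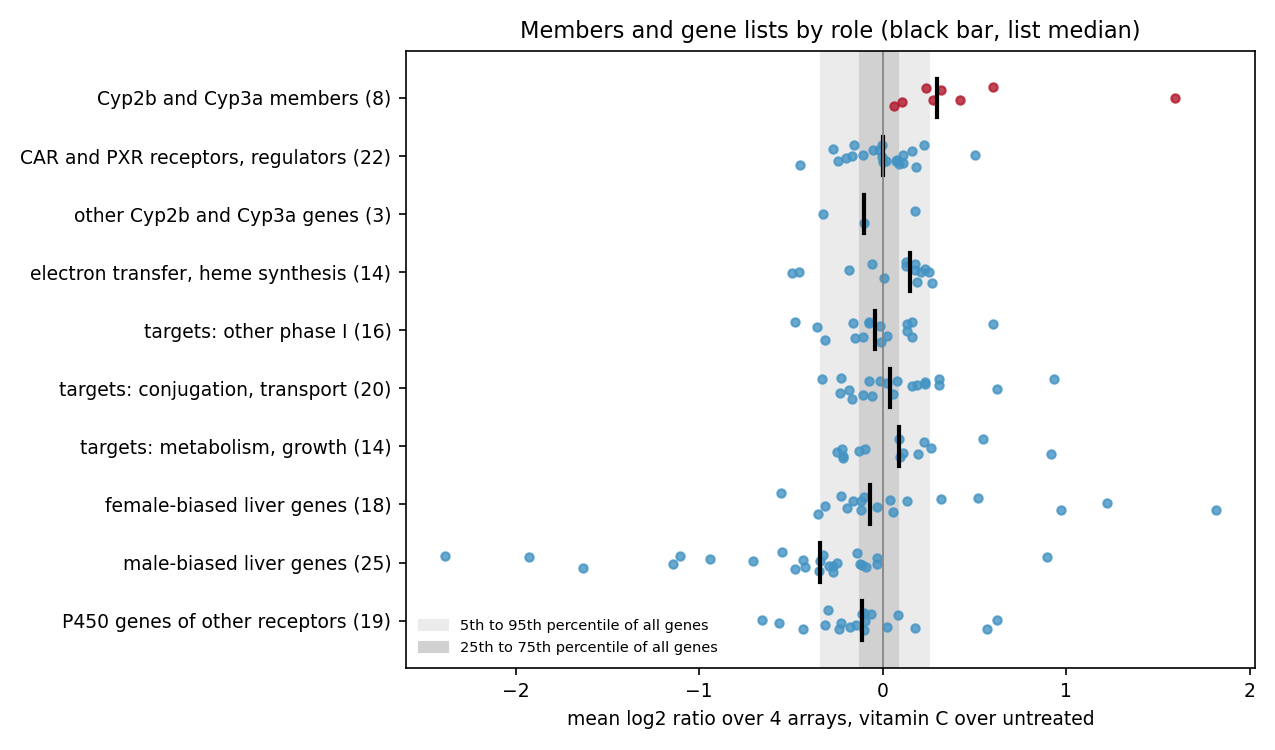
Mean log2 ratio of vitamin C over untreated (horizontal axis) for each measured gene (points) of the Cyp2b and Cyp3a members and of 9 gene lists, with list medians as bars and the 5th to 95th and 25th to 75th percentiles of all genes as grey bands. The members' median is 0.30, that of the receptors and regulators 0.00064, and that of the male-biased genes -0.34.

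Likeness of pattern was taken as the root mean square distance between the 4 log ratios of a member and those of 16860 other named genes that were above background in both dyes on all arrays. For Cyp2b10 the nearest were Ctf1 at 0.15, Enc1 at 0.17 (a dimmer Enc1 probe had a mean of -0.15) and Chchd6 at 0.18, where the median distance over those genes was 0.71. For Cyp3a11 they were Cyp3a44 at 0.093, Cct6a at 0.097 and Bco2 at 0.13, with a median distance of 0.48. These distances rest on 4 arrays and on the same arrays that chose the members.

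Markers of liver cell types were read on the same arrays. All 6 measured hepatocyte markers of 8 listed were above background in both dyes on at least 3 arrays, with a log2 summed level of 19.28 to 19.69 in treated livers and 19.87 to 20.03 in untreated livers. Array medians of these markers were -0.66, -0.57, -0.53 and -0.14, and their median log2 intensity was 17.09. Bright probes leaned downward: the 445 brightest genes (log2 intensity from 16 upward) had a median ratio of -0.15. How far this lean accounts for the lower hepatocyte marker levels in treated livers was not tested. Cyp2b and Cyp3a enzymes are found mainly in pericentral hepatocytes, and the 7 pericentral markers had array medians of 0.20, -0.29, 0.0079 and -0.47 and log2 summed levels of 18.68 to 19.20 in treated livers and 19.03 to 19.29 in untreated livers. The 5 measured periportal markers of 6 listed had array medians of -0.23, -0.15, -0.18 and 0.48, and log2 summed levels of 18.55 to 18.91 in treated and 18.85 to 19.01 in untreated livers. Replicate 4, where the Cyp3a ratios were lowest, thus had the lowest pericentral and the highest periportal median. Single markers were not uniform on that array. The periportal genes Cyp2f2 (-0.48) and Arg1 (-0.36) were below 0, and the pericentral genes Oat (0.23) and Axin2 (0.23) were above 0. The other markers of both lists had the sign of their list's median there. The part of zonation in the Cyp3a ratios was not tested. Of 6 listed enterocyte markers, relevant to Cyp3a13, 5 were measured, with array medians of -0.15, 0.042, -0.29 and -0.26, and their log2 summed level was 15.19 to 15.88 in treated livers and 15.10 to 15.53 in untreated livers. In whole liver RNA, a change in the number of cells of a type and a change in RNA per cell cannot be told apart.

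**Figure D4:**
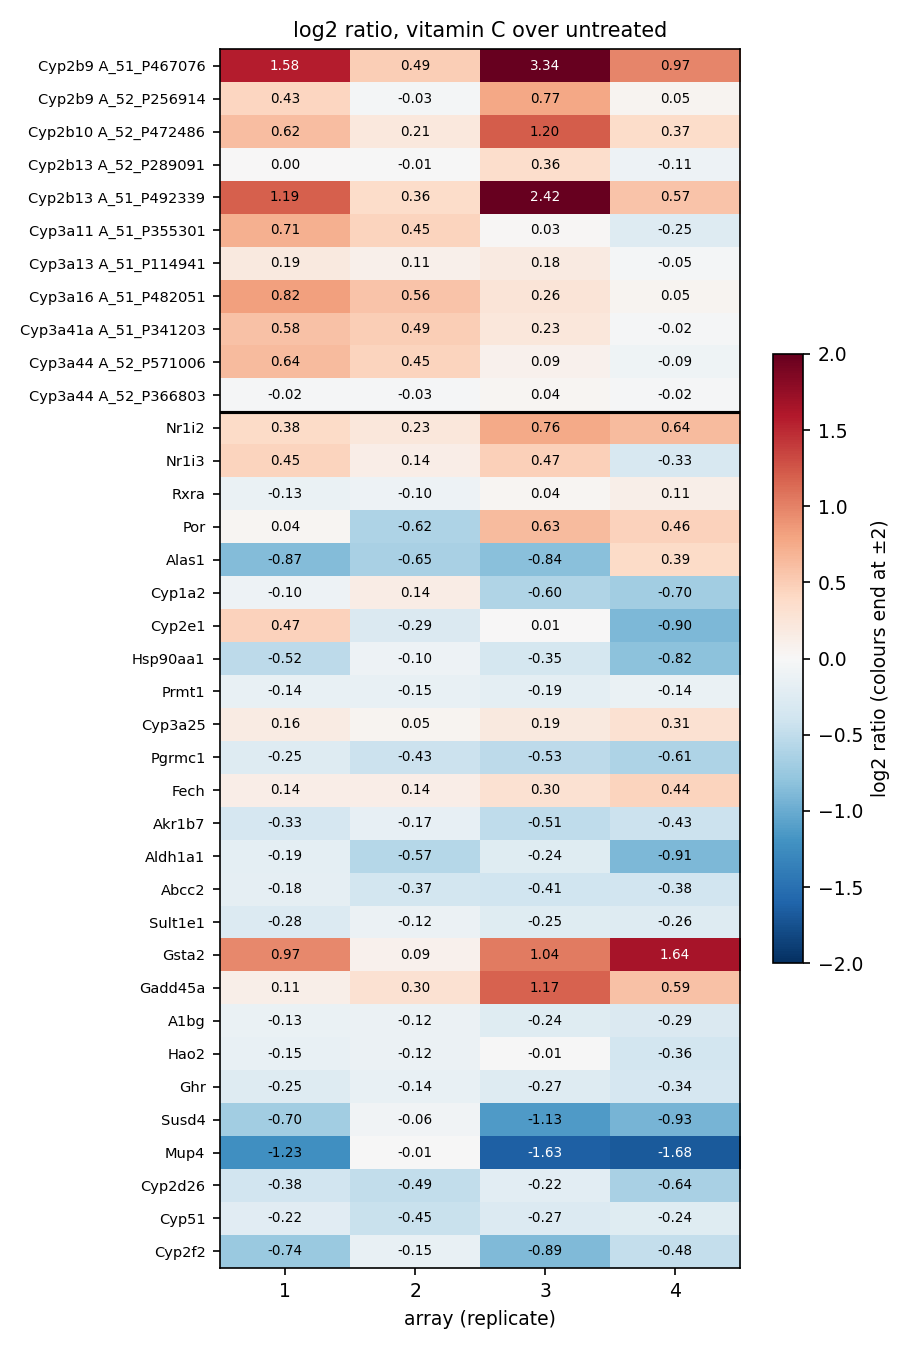
Log2 ratio of vitamin C over untreated for each member probe (above the line) and for genes of the lists named in the text (below it) on the 4 arrays, printed in each cell and coloured up to ±2. Cyp2b probes are highest on replicate 3, those of Cyp3a11, Cyp3a16 and Cyp3a41a on replicate 1, and Nr1i2 is positive throughout, from 0.23 to 0.76.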

How the data were processed

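The intensity values (median spot signal, median local background, processed signal) and the log10 ratio of Cy5 over Cy3 are the authors' deposited scanner output, and the file headers name Agilent Feature Extraction 10.5.1.1. The authors also deposited a table of log2 ratios; limma is named in the submitters' processing notes, and the sources used here give no further step. Set against each array's log2 Cy5 over Cy3, its columns had r = 0.968, 0.950, 0.974 and 0.980, slopes of 1.10 to 1.18 and medians of 0.0014 to 0.0050, so it runs as untreated over treated; its exact scale stayed unknown.

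Median signals were corrected with normexp (offset 50) and normalized by loess within each array, with control spots at weight 0 and outlier-flagged spots left out (0 of the members' spots). Repeat spots were averaged. Levels of single livers come from the same ratios after Aquantile normalization of the mean intensity between arrays. Accessions of 25097 probes (61%) matched 1 symbol in RefSeq (GRCm38.p6, which is not the build of the array design). The probe of highest mean intensity stood for its gene, kept if above background in either dye on 3 of 4 arrays, which left 31077 genes or accessions. R 4.3.3, limma 3.58.1, statmod 1.5.0, Python 3.11.15 and Biopython 1.88 were used. The 4 ratios of a gene were tested against 0 with limma and Benjamini-Hochberg adjustment. For 1 gene, exact sign flips over 4 arrays give a two-sided p of at least 0.125. The pairs are biological replicates per the labels. All arrays lay on 1 slide, so no slide block could be fitted. On simulated data with 200 of 31077 genes changed on 4 arrays, 62% of genes with a change of 1.5 times were recovered. The share was 82% at 2 times, 100% at 3 times and 98% at 4 times, and 2.29% of calls were false. In the main fit of the real arrays 0 genes passed, and Cyp2b9, with a fold of 3.02 and an SD of 1.25, was among those not called. The shares describe the simulated data only and do not tell how many real changes of such sizes would be found. The members, gene lists, alternatives and tests were chosen with earlier results of these data known. Named genes are all members, up to 3 genes of each list by smallest p with the same sign on all arrays, 7 set genes (Nr1i2, Nr1i3, Rxra, Por, Alas1, Cyp1a2, Cyp2e1), and the 3 genes nearest in pattern to Cyp2b10 and to Cyp3a11. Cyp2a4, Sult1e1 and Sult2a1 stand in 2 lists each. Some genes that this rule selects are not reported here.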

Additional observations from a re-analysis of the deposited data

Results flagged for a closer look

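In groups of 4 values, a value was singled out where its gap to the nearest other value, as a share of the group's range, exceeded Dixon's 95% critical value; chance alone singles out about 1 in 20 such groups, and 6 of 83 were found. On the dim probe A_52_P366803 of Cyp3a44, the ratio on replicate 3 stood apart (gap of 0.889 of the range), although the whole range was only 0.071 log2 units. The livers of replicate 1 stood apart in level on that probe, with 7.42 against 6.67 to 6.76 in treated livers (0.884) and 7.44 against 6.64 to 6.78 in untreated livers (0.82904). On the dimmer Cyp2b9 probe A_52_P256914, the untreated liver of replicate 2 was at 9.12, above the 8.83 to 8.88 of the other untreated livers (0.843). Abcc2 stood apart on replicate 1, with -0.18 against -0.41 to -0.37 (0.839). The periportal markers had an array median of 0.48 on replicate 4, against -0.23 to -0.15 on the other 3 (0.891). The brighter Cyp2b and Cyp3a probes were not among these.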

How the results depend on the processing

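The count of genes with an adjusted p under 0.05 was 0 in the main fit and was between 0 and 8754 when single arrays were dropped. The 8754 came without replicate 2; without replicates 1, 3 and 4 it was 0, with 3906, 3114 and 4111 genes at an unadjusted p under 0.05. It was 9638 without loess and 885 (0 of them members) when the dyes were fitted as separate channels with arrays as random blocks. It stayed 0 in the other 11 fits, 1 of which tested 39333 single probes in place of genes. In that fit 10698 probes had an unadjusted p under 0.05, and in the rest of the 11 it was 6471 to 8986 genes. Without loess the medians of the receptor and regulator list (-0.13) and of the electron transfer and heme list (-0.014) also moved by more than the spread between arrays; the other list medians and that of the members did not, under any of 14 alternatives. Cyp2b9, Cyp2b10, Cyp3a11, Cyp3a16, Cyp3a41a and Cyp3a44 kept means above 0 in all 14. Cyp3a13 turned to -0.034 without loess. Cyp2b13 was at 0.60 when its probes were averaged, and Cyp2b9 at 0.30 on its dimmer probe. The cause of these shifts was not tested. The removal of a running median over intensity was chosen after seeing the data; it left the members' median at 0.36. The main test is itself paired, since each array's ratio sets 1 treated liver against 1 untreated liver. No paired analysis was possible beyond it, because a replicate number as a further block would take up each array's only ratio. Each member has 1 spot per probe, so its precision rests on 4 arrays.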
